A study of Mus musculus with 15 samples.

Results

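Integrins, laminins and collagens were followed through RNA sequencing of mouse small intestinal organoids, epithelial cultures grown from crypts. The set held 82 of the 43629 genes of the count table, namely 27 integrin subunits, 11 laminin chains and 44 collagen chains. Members were protein-coding genes whose symbol is Itga or Itgb with a number or letter, Lama, Lamb or Lamc with a digit, or Col with digits, a and digits. Genes that only share the start of such a name (Col4a3bp, Itgb1bp1, Itgb1bp2, Itgb3bp and Itgbl1) were left out.

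All organoids were of strain C57B6/129, were embedded in Matrigel, itself a basement membrane preparation, and were sequenced from polyadenylated RNA. The WT group held 5 libraries grown in ENR medium, which contains EGF, Noggin and RSPO1. Of these, 4 came from APC flox/flox lines numbered 1, 2, 5 and 6, in which the floxed gene is intact, and 1 was a dox-naive culture (replicate naive). The Apc group held 4 libraries of Apc delta/delta organoids from lines with the same numbers, grown in EN medium, which lacks RSPO1. The P-Rspo3 group held 4 libraries (15d, 4d, M and F) of organoids carrying the Ptprk-Rspo3 rearrangement, also grown in EN. By the study's methods that rearrangement came from a doxycycline-induced Cas9 transgene targeted to the Col1a1 locus, and the cultures were polyclonal and selected by growth without RSPO1. Genotype and medium changed together between either mutant group and WT, so their parts cannot be told apart. The labels do not say which libraries share an animal, so p-values measure the spread between these libraries.

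Basement membranes are thin sheets of matrix that epithelia sit on, built from a laminin network and a type IV collagen network. A laminin is a trimer of 1 alpha, 1 beta and 1 gamma chain, and the alpha chain carries the main sites for cell receptors. Integrins are receptors made of 1 alpha and 1 beta subunit that bind laminins, collagens or proteins with an RGD motif and link them to the cytoskeleton. In the gut, epithelial cells and the mesenchyme below them both contribute to this matrix, and organoids lack the mesenchyme.

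The libraries held 28902729 to 35528495 counts each. The FPKM of 8 epithelial markers (such as Epcam, Cdh1 and Vil1) summed to 2131 to 2562 in WT, 2074 to 2549 in Apc and 2083 to 2505 in P-Rspo3. Single markers differed within these sums. Krt18 was at 199 ± 26.1 FPKM (SD) in WT and 517 ± 78.4 in Apc. Vil1 was at 180 ± 21.4 in WT and 91.9 ± 7.28 in Apc, and Krt19 at 676 ± 92.5 and 470 ± 92.0. Rspo3 was at 0 to 1 count in WT, 7 to 57 in Apc and 539 to 1079 in P-Rspo3. Apc itself was at 11.6 to 22.3 FPKM in WT and at 28.3 to 30.5 in the Apc libraries, where a gene count also takes in exons outside a deletion, so it does not check those labels. In bulk RNA, fewer cells of a type and less RNA per cell cannot be told apart.

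Apc organoids differed from WT in most of the laminin, collagen and integrin genes that could be tested, and in P-Rspo3 organoids none was called. Of 82 members, 41 passed a filter of 0.1 FPKM (fragments per kilobase of transcript, scaled to the library) in at least 4 libraries of Apc and WT. In edgeR's quasi-likelihood test on counts, 18 of the 41 were called higher in Apc, at an adjusted p under 0.05 and a log2 fold change above 1, where 12.2% of all 16749 genes tested were. Another 8 were called lower, where 14.1% of all genes were. Among the 41 were 9 members with no WT library and 1 with no Apc library at 0.1 FPKM, which entered only through the group in which they were high. All 9 were among the 18 called higher, and 7 of them were collagens (Col4a1, Col4a2, Col4a5, Col12a1, Col14a1, Col2a1 and Col27a1), and members that entered in this way had to differ. Of the 31 members with a library of each group at 0.1 FPKM, 9 were called higher and 7 lower, where 9.97% and 12.7% of the 15909 genes counted the same way were. These 31 held 7 laminins with 4 higher and 0 lower, 7 collagens with 2 higher and 2 lower, and 17 integrins with 3 higher and 5 lower. Over all members tested, 5 of 8 laminins rose and none fell, 9 of 15 collagens rose and 3 fell, and 4 of 18 integrins rose and 5 fell. The median log2 fold change of the 41, those 9 included, was 0.67, against 0.00058 for all genes tested. With limma on FPKM, the median of all genes lay 0.17 above 0 on log2(FPKM + 1) and 0.28 on log2(FPKM + 0.1). The share of all calls that were higher was 46.4% on counts and 55.6% and 59.9% on those scales. Folds read from FPKM in Apc against WT thus run above the count-based ones given beside them.

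The DNA before the starts of 4 members described below is printed here from RefSeq (GRCm38.p6), on the strand of the gene. Lama5 and Col4a5 rose in Apc, and Itgb5 and Itga1 fell. Each stretch ends at the base before the annotated transcript, and capitals mark motifs found on either strand. The 4 motifs searched were the GC box with the letters GGGCGG, the box named for its letters CCAAT, the TATA box with the letters TATAAA, and a TCF/LEF-type motif that reads CTTTGAA and may also end in T instead of its final letter. The stretches lie at chr2:180225860-180226109 (minus strand), chrX:141475169-141475384 (plus), chr16:33829415-33829664 (plus) and chr13:115101965-115102214 (minus).
Lama5: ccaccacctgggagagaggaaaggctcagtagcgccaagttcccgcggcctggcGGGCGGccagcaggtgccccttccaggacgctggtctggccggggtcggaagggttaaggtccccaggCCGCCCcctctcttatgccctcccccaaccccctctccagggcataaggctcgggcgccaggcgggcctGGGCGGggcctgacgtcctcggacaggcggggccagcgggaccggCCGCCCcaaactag
Col4a5: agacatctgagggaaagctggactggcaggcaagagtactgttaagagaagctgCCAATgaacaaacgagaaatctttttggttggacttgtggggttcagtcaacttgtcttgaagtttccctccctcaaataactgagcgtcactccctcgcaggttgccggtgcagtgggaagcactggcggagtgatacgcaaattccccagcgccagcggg
Itgb5: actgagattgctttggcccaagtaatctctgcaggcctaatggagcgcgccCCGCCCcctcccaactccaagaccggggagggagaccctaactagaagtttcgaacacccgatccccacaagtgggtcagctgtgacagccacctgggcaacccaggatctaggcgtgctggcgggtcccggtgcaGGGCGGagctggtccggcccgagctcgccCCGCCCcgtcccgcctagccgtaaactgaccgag
Itga1: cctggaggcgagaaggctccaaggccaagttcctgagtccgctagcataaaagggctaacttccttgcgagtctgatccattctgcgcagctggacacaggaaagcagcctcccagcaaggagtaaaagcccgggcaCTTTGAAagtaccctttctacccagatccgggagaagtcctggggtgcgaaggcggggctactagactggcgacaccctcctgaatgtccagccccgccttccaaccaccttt
The GC box recurs before Lama5 and Itgb5, and the TCF/LEF-type letters stand only in the Itga1 stretch among these 4. A window of 250 bases before and 50 after the start was at hand for 59 of the 82 members. The TCF/LEF-type letters stood in 7 of the 59, in 0 of the 13 with a window that were called higher in Apc and in 2 of the 6 called lower (Col15a1 and Itga1), and in 8.65% of all 32851 windows. The GC box stood in 33 of the 59, in 10 of the 13 and in 3 of the 6, and in 35.7% of all windows. The CCAAT box stood in 17, 7 and 1 of these, and in 37.4% of all windows, and the TATA box in 5, 0 and 0, and in 13.6%. A member was counted where any window under its symbol matched, while the share of all windows is per window, so these shares are not like for like. These are matches of letters only.

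Among the laminin alpha chains, Lama5 and Lama1 rose in Apc and Lama3 was not called. Lama5, the alpha chain of laminin-511 and laminin-521 of the adult intestinal basement membrane, was at 2.03, 9.43, 4.07, 2.36 and 1.81 FPKM in the WT libraries 1, 2, 5, 6 and naive. It was at 71.7, 67.4, 65.4 and 82.3 in the Apc libraries 1, 2, 5 and 6, and at 4.15, 1.57, 1.69 and 1.18 in the P-Rspo3 libraries 15d, 4d, M and F. Every Apc library lay above every WT and P-Rspo3 library, with a log2 fold change on counts of 3.74 ± 0.41 (SE) against WT (edgeR adjusted p = 1.81e-05). The mean was 71.7 ± 7.58 FPKM (SD, n = 4) in Apc and 3.94 ± 3.20 (n = 5) in WT, which made Lama5 the most abundant laminin chain of the Apc libraries. Lama1, the alpha chain of laminin-111 that is known from early embryonic basement membranes, had 0 counts in every WT and P-Rspo3 library. It had 94, 123, 174 and 164 counts in Apc, which is at least 34.8-fold higher than WT when 3 counts per library are allowed (adjusted p = 7.38e-06). Its level stayed low even there, at 0.291 ± 0.0736 FPKM. Lama3, the alpha chain of laminin-332, was not called against WT (log2 fold change 1.41 ± 0.70, adjusted p = 0.108). Its Apc libraries ran from 0.165 to 1.01 FPKM and overlapped the WT libraries at 0.00766 to 0.176. Limma on log2(FPKM + 0.1) called it (1.45, adjusted p = 0.0179). Lama4, the alpha chain of laminin-411, did not pass the filter and was at 17 counts or fewer in every library.

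Among the beta chains, Lamb2 and Lamb1 rose and Lamb3 was not called. Lamb2, the beta chain of laminin-521, was at 1.30, 2.34, 0.378, 2.08 and 0.408 FPKM in WT and at 14.95, 24.1, 14.6 and 22.4 in Apc, with no overlap and a log2 fold change of 3.55 ± 0.33 (edgeR adjusted p = 5e-06). Lamb1, the beta chain of laminin-111, laminin-411 and laminin-511, rose by 2.55 ± 0.49 (adjusted p = 0.00105). Its 4 Apc libraries lay at 1.36, 0.774, 1.45 and 4.03 FPKM, all above the WT range of 0.176 to 0.426, and replicate 6 was the highest of them. Lamb3, which assembles with Lama3, was the beta chain with the highest mean FPKM in WT (19.3 ± 5.97) and lay at 16.5 ± 1.89 in Apc, where the groups overlapped (log2 fold change -0.46 ± 0.21, adjusted p = 0.0834). Lamc1, the gamma chain shared by most laminins, passed the adjusted p but not the fold threshold, with 8.10 ± 1.04 FPKM in WT and 13.7 ± 2.94 in Apc (log2 fold change 0.44 ± 0.13, adjusted p = 0.0138). Lama2 and Lamc3 did not exceed 5 counts in any library of the 3 groups.

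**Figure D1:**
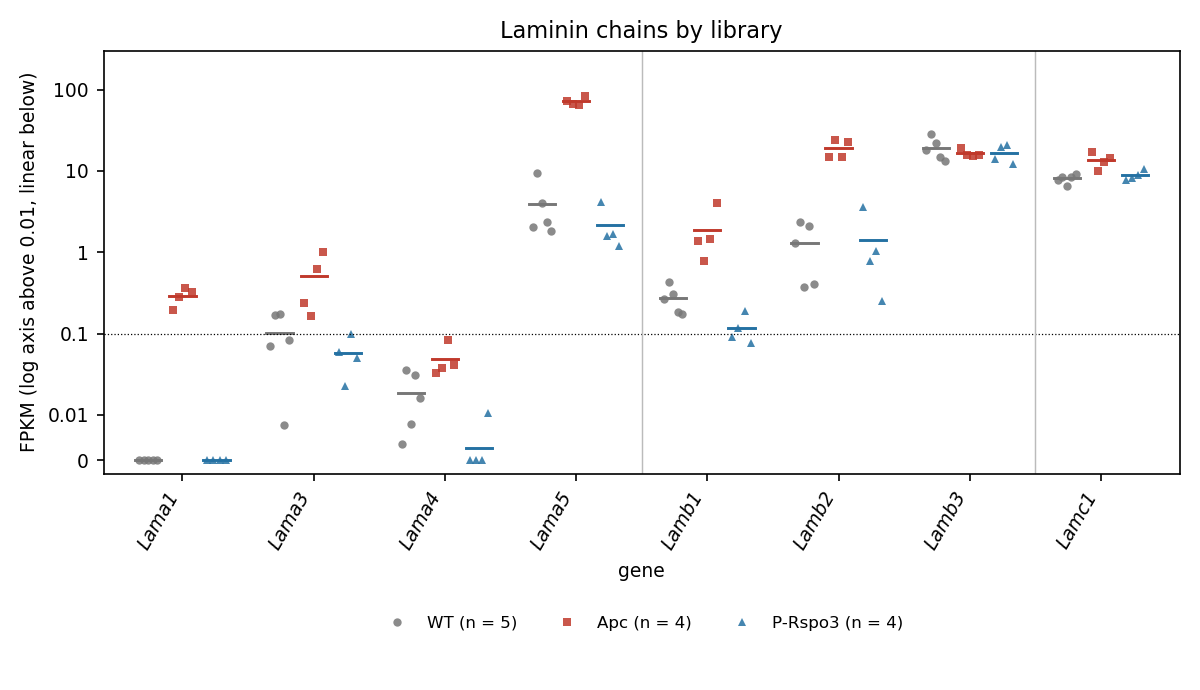
FPKM of 8 laminin chains in each library (symbols) with group means (short lines), on an axis that is logarithmic above 0.01 and linear below, with the filter of 0.1 FPKM dotted. Lama5 stands at 65.4 to 82.3 FPKM in the 4 Apc libraries and at 1.81 to 9.43 in the 5 WT libraries, while the groups overlap for Lamb3.

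Of the type IV collagen chains, which form the network collagen of basement membranes, Col4a1, Col4a2 and Col4a5 were near absent in WT and present in Apc. Col4a1 had 1, 2, 1, 1 and 0 counts in the WT libraries and 1933, 434, 3578 and 2877 in the Apc libraries. That is at least 542.6-fold higher with 3 counts per library allowed in WT (edgeR adjusted p = 1.19e-06), and Apc replicate 2 was the lowest of its group. Col4a2, its partner in the common Col4a1/Col4a2 trimer, had 2, 0, 2, 1 and 0 counts in WT and 1660, 338, 2391 and 2633 in Apc, at least 429.7-fold higher (adjusted p = 1.35e-06). In FPKM the Apc means were 6.17 ± 3.75 and 5.28 ± 3.02. The pair lies head to head on chromosome 8 of GRCm38, Col4a1 at chr8:11198423-11312826 on the minus strand and Col4a2 at chr8:11312805-11449287 on the plus strand, so that their first exons share 22 bases. Reads in those bases cannot be assigned where strand was not used, and the strand setting of the counting is not given in the sources used here.

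Col4a5, a chain of the Col4a5/Col4a6 pair and of the kidney-type network, had 0 counts in every WT and P-Rspo3 library and 97, 37, 201 and 205 in Apc, at least 33.2-fold higher than WT (edgeR adjusted p = 0.000178). Replicate 2 was again the lowest. Col4a6 starts 1308 bases from Col4a5 on the opposite strand of the X chromosome, and it had at most 5 counts in any library. Col4a3 was at 14 to 35 counts in all 3 groups. Col4a4 was at 4 to 8 counts in WT, 10 to 17 in Apc and 3 to 9 in P-Rspo3. Neither passed the filter. Of the 6 type IV chains, 3 were therefore called higher in Apc and 3 were not tested.

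The multiplexins, basement membrane collagens whose ends can be released as fragments such as endostatin, moved in opposite directions. Col18a1 was at 0.147, 0.164, 0.193, 0.124 and 0.129 FPKM in WT and at 7.08, 5.89, 9.13 and 10.98 in Apc, far apart and with a log2 fold change of 5.30 ± 0.21 (edgeR adjusted p = 1.92e-08). Col15a1 had 12, 10, 24, 9 and 23 counts in WT and 3, 2, 2 and 1 in Apc. It fell at least 7.06-fold with 3 counts per library allowed in Apc (adjusted p = 0.000271), and its counts did not overlap although its FPKM did. Limma on FPKM did not call it (adjusted p = 0.0681 on log2(FPKM + 1) and 0.0511 on log2(FPKM + 0.1)). Col7a1, which forms the anchoring fibrils below hemidesmosomes, had 49 to 76 counts in WT and 14 to 45 in Apc (log2 fold change -1.56 ± 0.34, adjusted p = 0.00218), while its FPKM overlapped between the groups.

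Of the fibril-associated collagens, which decorate other collagen fibrils, Col16a1, Col12a1 and Col14a1 rose from low levels. Col16a1 was at 0.631, 0.116, 0.388, 0.273 and 0.122 FPKM in WT and at 5.84, 8.78, 11.1 and 4.84 in Apc, without overlap (log2 fold change 4.23 ± 0.42, edgeR adjusted p = 8.68e-06). It had the highest mean of this class in Apc (7.63 ± 2.84 FPKM), and only 166 to 344 counts stood behind it. Col12a1 had 0 to 5 counts in WT and 138, 52, 126 and 319 in Apc (log2 fold change 6.29 ± 0.72, adjusted p = 2.48e-05). Col14a1 had at most 3 counts in WT and 57, 43, 358 and 93 in Apc, at least 34.6-fold higher (adjusted p = 0.000123), and replicate 5 stood above the other 3. Col20a1 and Col9a3 were not called against WT, at log2 fold changes of -1.16 ± 0.51 and 1.09 ± 0.52 (adjusted p = 0.0747 and 0.0971). Col20a1 passed without WT replicate 6 (-1.4002, adjusted p = 0.0226) and by DESeq2 (-1.18, adjusted p = 0.0463). Col9a3 passed without WT replicate 2 (1.66, adjusted p = 0.0125) or Apc replicate 1 (1.38, adjusted p = 0.0323).

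Of 11 fibrillar collagens, the interstitial collagens mostly made by mesenchymal cells, 3 were tested. Col27a1 rose by 2.12 ± 0.48 (edgeR adjusted p = 0.00278), from 0.0305 ± 0.0107 FPKM in WT to 0.164 ± 0.0628 in Apc. Col2a1, a cartilage collagen, had 0 to 1 count in WT and 46, 25, 33 and 58 in Apc, at least 10.0-fold higher (adjusted p = 5.13e-06). Col11a2, a minor fibrillar chain, was not called (-0.49 ± 0.28, adjusted p = 0.159). Col27a1 and Col2a1 stayed low, at no more than 0.233 FPKM in any library. Col1a1, the main chain of type I collagen and the locus of the Cas9 transgene, was at 15 counts or fewer in every library. The 6 type VI collagen genes did not exceed 9 counts. Col26a1, a little-studied collagen-like gene, was called lower (log2 fold change -3.27 ± 1.23, adjusted p = 0.0397) from 0, 11, 61, 31 and 9 counts in WT against 0, 0, 11 and 1 in Apc. That call was lost without Apc replicate 1, 2 or 6 (adjusted p = 0.0908, 0.0891 and 0.0941), and in the fit of all 3 groups (adjusted p = 0.0842). It was also lost with an ungrouped library added to WT by its genotype label (edgeR adjusted p = 0.0691), and with limma on log2(FPKM + 1). Col26a1 had no Apc library at 0.1 FPKM, so it entered only through WT, where it was high.

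Markers of mesenchyme were read beside these collagens. The FPKM of 10 fibroblast and mesenchyme markers summed to 0.124 to 0.297 in WT, 0.502 to 2.95 in Apc and 0.275 to 1.05 in P-Rspo3. In the Apc libraries Lum and Dcn were at 0 counts and Twist1, Twist2, Pdpn and Dpt at 2 or fewer. Postn reached 294 counts there and Pdgfra 73, both called higher than in WT, and Thy1 reached 35. Pdgfrb was called lower in Apc than in WT (log2 fold change -3.63 ± 0.63). The 4 smooth muscle markers summed to at most 0.143 FPKM. The 5 endothelial markers summed to 0.341 to 0.507 in WT and 2.35 to 2.68 in Apc. Kdr was at 0 counts and Emcn at 1 or fewer. Cdh5 was at up to 372 counts in Apc and 0 elsewhere, and Tek at up to 260 in Apc and 17 in WT. Pecam1 was called lower in Apc than in WT (log2 fold change -2.95 ± 0.37). The 6 leukocyte markers summed to 1.08 to 2.85 in WT and 3.74 to 10.3 in Apc, mostly from Cd68, while Csf1r was called lower (-3.92 ± 0.85). The 3 glial markers summed to 0.699 to 2.09 in WT and 0.889 to 1.36 in Apc, with S100b called lower (-4.72 ± 0.73). The part of such cells in the results was not tested. Pdgfra and Cdh5 had no WT library at 0.1 FPKM, and Pdgfrb and S100b no Apc library. These genes entered only through the group in which they were high, so they had to differ.

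**Figure D2:**
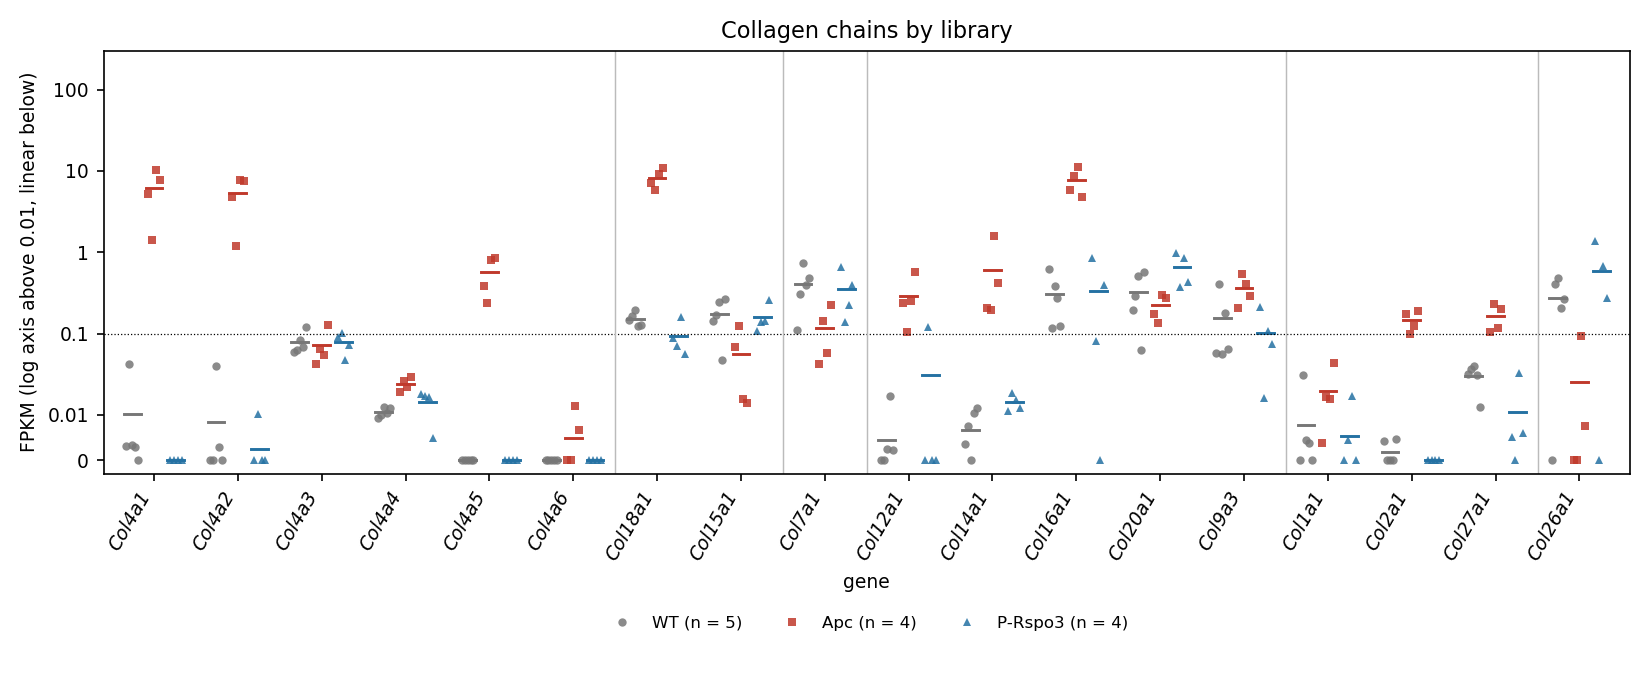
FPKM of 18 collagen chains in each library (symbols) with group means (short lines), on an axis that is logarithmic above 0.01 and linear below; the dotted line is the filter at 0.1 FPKM and vertical lines part the collagen classes. Col4a1, Col4a2, Col4a5, Col18a1 and Col16a1 stand apart in the Apc libraries, and Col4a3 and Col4a6 do not.

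The integrins that carry the epithelium were abundant in all groups, and their differences in Apc stayed under the fold threshold for Itga6, Itgb1, Itgb4 and Itga3. Itga6, the laminin receptor subunit that pairs with Itgb4 in hemidesmosomes and with Itgb1 elsewhere, was at 67.7, 62.2, 63.9, 85.3 and 61.0 FPKM in WT and at 110.97, 110.93, 132 and 143 in Apc. The groups did not overlap, yet the log2 fold change of 0.60 ± 0.11 (edgeR adjusted p = 0.000834) lay below the fold threshold. Itgb1, the partner of most matrix-binding alpha subunits, followed, with 57.6 ± 3.19 FPKM in WT, 97.6 ± 4.54 in Apc and a log2 fold change of 0.49 ± 0.06 (adjusted p = 6.26e-05). Itgb4 had 20.3 ± 2.31 and 38.5 ± 9.35 FPKM (log2 fold change 0.66 ± 0.14, adjusted p = 0.00213). Itga3, the other widely expressed laminin-binding alpha subunit, had the opposite sign, at 25.2 ± 1.68 FPKM in WT and 20.6 ± 3.55 in Apc (log2 fold change -0.56 ± 0.11, adjusted p = 0.000871). Its groups overlapped in FPKM. Itga7, a laminin receptor subunit best known from muscle, was the 1 laminin-binding alpha subunit called, at 539, 412, 485, 185 and 275 counts in WT and 45, 146, 74 and 348 in Apc. Apc replicate 6 lay inside the WT range, and the call (log2 fold change -1.76 ± 0.55, adjusted p = 0.0177) was lost without Apc replicate 5 (adjusted p = 0.0506).

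Of the 3 collagen-binding alpha subunits tested, only Itga1 was called, while the RGD-binding subunits split. Itga1, a collagen receptor subunit that prefers type IV collagen, was at 1.97, 2.29, 1.56, 2.73 and 1.49 FPKM in WT and at 0.280, 0.311, 0.504 and 0.649 in Apc, with no overlap (log2 fold change -2.49 ± 0.28, edgeR adjusted p = 2.21e-05). Itga2, the collagen receptor subunit with the highest mean FPKM here, was at 6.76 ± 1.03 in WT and 9.95 ± 0.72 in Apc, a log2 fold change of 0.27 ± 0.10 (adjusted p = 0.0355) that missed the fold threshold. Itgb5, which pairs with Itgav to bind vitronectin, fell in every Apc library, from 6.93, 6.43, 8.76, 5.55 and 6.54 FPKM to 1.33, 1.04, 0.680 and 1.64 (log2 fold change -2.80 ± 0.22, adjusted p = 1.96e-06). Itgav itself rose, from 4.40, 4.81, 3.32, 4.79 and 4.19 FPKM to 11.2, 9.41, 9.96 and 10.9 (log2 fold change 1.13 ± 0.09, adjusted p = 2.6e-06). The alpha subunit and this beta partner thus changed in opposite directions, each without overlap.

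Of the other beta partners of Itgav, Itgb8 rose, Itgb6 was not called and Itgb3 was not detected. Itgb8, which with Itgav activates latent TGF-beta, had 1, 3, 2, 2 and 2 counts in WT and 81, 104, 399 and 149 in Apc, at least 46.1-fold higher (edgeR adjusted p = 8.33e-06), with replicate 5 the highest. Itgb6, another activator of latent TGF-beta that is confined to epithelia, passed only the adjusted p on counts (log2 fold change 0.67 ± 0.18, adjusted p = 0.00722). Limma on FPKM called it (log2 fold change 1.35 on log2(FPKM + 0.1), adjusted p = 0.000114), and the 2 tables order its Apc libraries differently, since replicate 2 had the lowest count (561) and the highest FPKM (7.86). Itgb3 had 0 counts in every library. Itga5, the alpha subunit of the main fibronectin receptor, was at 5, 45, 21, 43 and 15 counts in WT and 298, 199, 402 and 435 in Apc, without overlap (log2 fold change 3.27 ± 0.48, adjusted p = 0.000152). Itga9, a receptor subunit for tenascin and fibronectin EIIIA, rose by 3.19 ± 0.36 (adjusted p = 2.45e-05), from 7 to 18 counts in WT to 64 to 196 in Apc.

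Integrin subunits named for leukocytes and platelets were low. Itgam, the alpha subunit of the myeloid complement receptor, had 173 to 335 counts in WT and 43 to 74 in Apc (log2 fold change -2.54 ± 0.29, edgeR adjusted p = 2.7e-05). Its exons share 3450 bases (68.7%) with the annotated gene Gm49368 on the same strand, so reads there are uncertain. Itga2b, the platelet fibrinogen receptor subunit, had 48 to 91 counts in WT and 15 to 28 in Apc (log2 fold change -1.93 ± 0.30, adjusted p = 0.000219). Its FPKM overlapped, and limma on FPKM did not call it (adjusted p = 0.0544 and 0.0507). Its usual partner Itgb3 was not detected, as above, and Itgb2, the partner of Itgam, had at most 4 counts. The leukocyte marker Ptprc was at 24 counts or fewer in WT and 2 or fewer in Apc. Itgae, the alpha subunit of lymphocytes that bind E-cadherin, and Itgb7 did not pass the filter in Apc against WT.

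**Figure D3:**
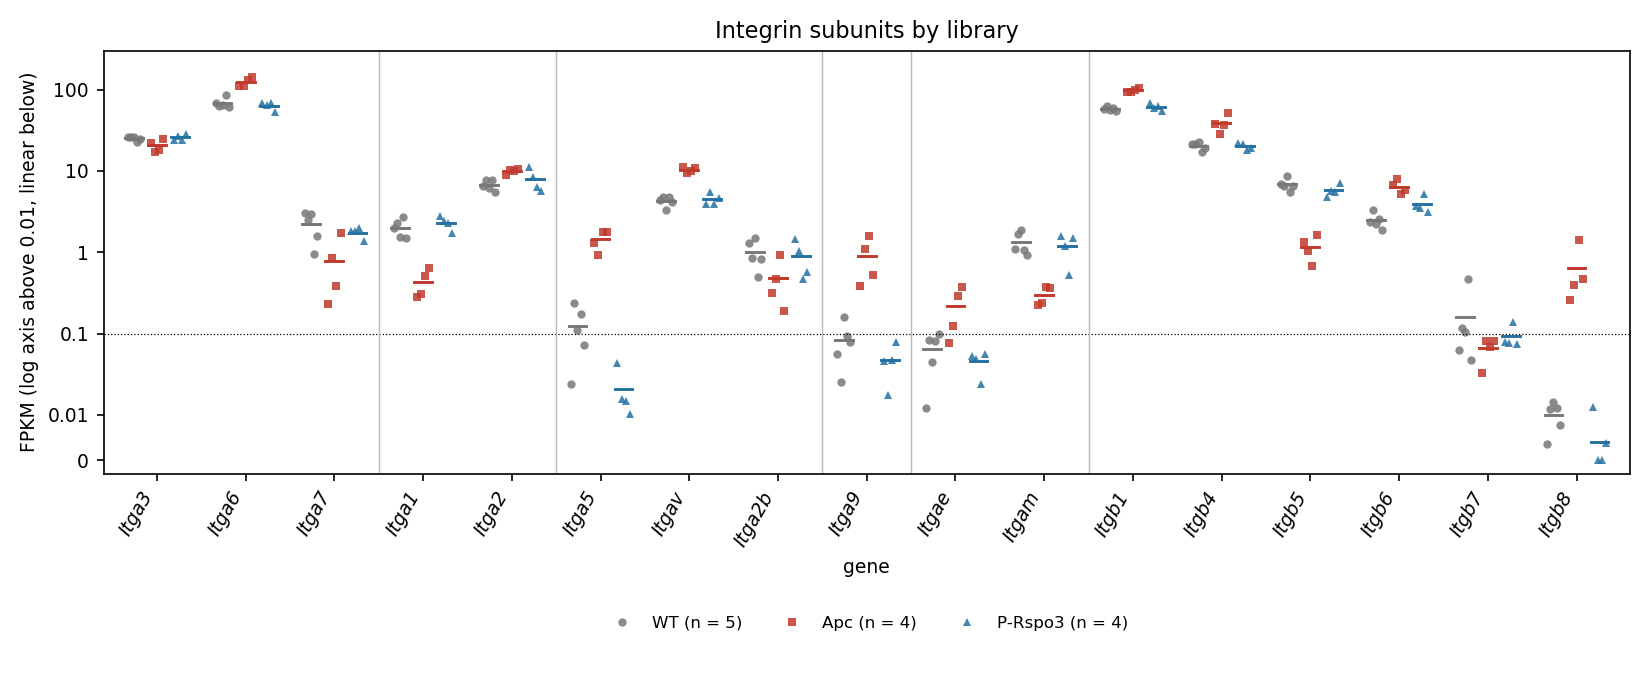
FPKM of 17 integrin subunits in each library (symbols) with group means (short lines), on an axis that is logarithmic above 0.01 and linear below; the dotted line is the filter at 0.1 FPKM and vertical lines part the alpha classes and the beta subunits. Itga6 and Itgb1 lead in every group, while Itgb5 and Itga1 are lower and Itga5 and Itgb8 higher in the Apc libraries than in any WT library.

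In P-Rspo3 against WT, 30 members passed the filter, 1 of them with no P-Rspo3 library at 0.1 FPKM, and 0 were called in either direction by edgeR. Of all 15992 genes tested, 0.00625% (1 gene) were called higher and 0% lower, so the members' count is that of the background. That background depended on the fit, since 266 of all genes were called without WT replicate naive and 75 in the fit of all 3 groups. An unadjusted p under 0.05 was seen for 3 of the 30 (Itgad, Lamb1 and Col18a1) and for 2159 of all genes. Itgad was the 1 member with no P-Rspo3 library at 0.1 FPKM. It entered only through WT, where it was high, so its p is no support for a difference. The median log2 fold change of the 30 was -0.06, against 0.0041 for all genes. The laminin receptor subunits lay close to WT, with log2 fold changes of -0.08 ± 0.10 for Itga6, 0.08 ± 0.07 for Itgb1, 0.02 ± 0.10 for Itgb4 and -0.03 ± 0.10 for Itga3. Lamb1 was at 44, 93, 62, 53 and 25 counts in WT and at 20, 17, 35 and 10 in P-Rspo3, which overlap. Its log2 fold change was -1.47 ± 0.43 (adjusted p = 0.19), and DESeq2 called it lower (-1.49, adjusted p = 0.0387), the 1 member either tool called here. Lama5 (-0.80 ± 0.44, adjusted p = 0.458) and Col18a1 (-0.81 ± 0.29, adjusted p = 0.259) also had values below WT without passing. A p that misses the threshold does not show equal levels, and for low members such as Col16a1 (0.08 ± 0.80) the error was too wide to tell.

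Apc and P-Rspo3 organoids were both grown without RSPO1, so this contrast holds the medium constant. The lines still differ with the genotype, and Rspo3 itself was at 7 to 57 counts in Apc and 539 to 1079 in P-Rspo3. It shares the Apc libraries with the contrast above and is given beside it, not as a second test. Of 39 members tested, 19 were called higher in Apc, where 13.4% of all 16456 genes were, and 8 lower, where 13.3% were. Among the 39 were 11 members with no P-Rspo3 library at 0.1 FPKM, and all 11 were among the 19. Members that entered in this way, Col4a1 and Col4a2 among them, had to differ. Of the 28 with a library of each group at 0.1 FPKM, 8 were called higher and 8 lower, where 10.4% and 12.2% of the 15558 genes counted the same way were. Col4a1 had 0 counts in all 4 P-Rspo3 libraries and was at least 553.9-fold higher in Apc (edgeR adjusted p = 0.000269), and Col4a2, with at most 3 counts in P-Rspo3, at least 438.6-fold (adjusted p = 1.76e-05). Lama5 was higher by 4.56 ± 0.27 (adjusted p = 1.53e-06) and Lamb2 by 4.21 ± 0.43 (adjusted p = 3.31e-05).

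Lama3 was called in this contrast (2.53 ± 0.64, edgeR adjusted p = 0.00761). It had no P-Rspo3 library at 0.1 FPKM, so it entered only through Apc and had to differ. Its P-Rspo3 libraries were at 22, 6, 35 and 19 counts and its Apc libraries at 78, 45, 194 and 313, which do not overlap. Col9a3 was called higher (1.74 ± 0.56, adjusted p = 0.0241), with 234 of its exonic bases shared with Tcfl5 on the opposite strand, and lost the call without Apc replicate 2 or 5 or P-Rspo3 replicate 4d or F (adjusted p = 0.0503, 0.0676, 0.0501 and 0.0516). Col20a1 was called lower (-1.91 ± 0.44, adjusted p = 0.00482). Itgb5 was lower by 2.58 on the log2 scale (log2 fold change -2.58 ± 0.27, adjusted p = 3.7e-05) and Itga1 had a log2 fold change of -2.68 ± 0.28 (adjusted p = 3.6e-05). Itgav, at 0.91 ± 0.16 (adjusted p = 0.000816), fell short of the fold threshold in this contrast. Without P-Rspo3 replicate F it passed it (1.05), and limma on FPKM called it (1.06 on log2(FPKM + 1) and 1.20 on log2(FPKM + 0.1), adjusted p = 9.89e-05 and 9.24e-05). Itga7 (-1.38 ± 0.51, adjusted p = 0.0448) lost its call without any 1 of the 4 P-Rspo3 libraries or Apc replicate 1, 2 or 5 (adjusted p = 0.0611 to 0.106).

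**Figure D4:**
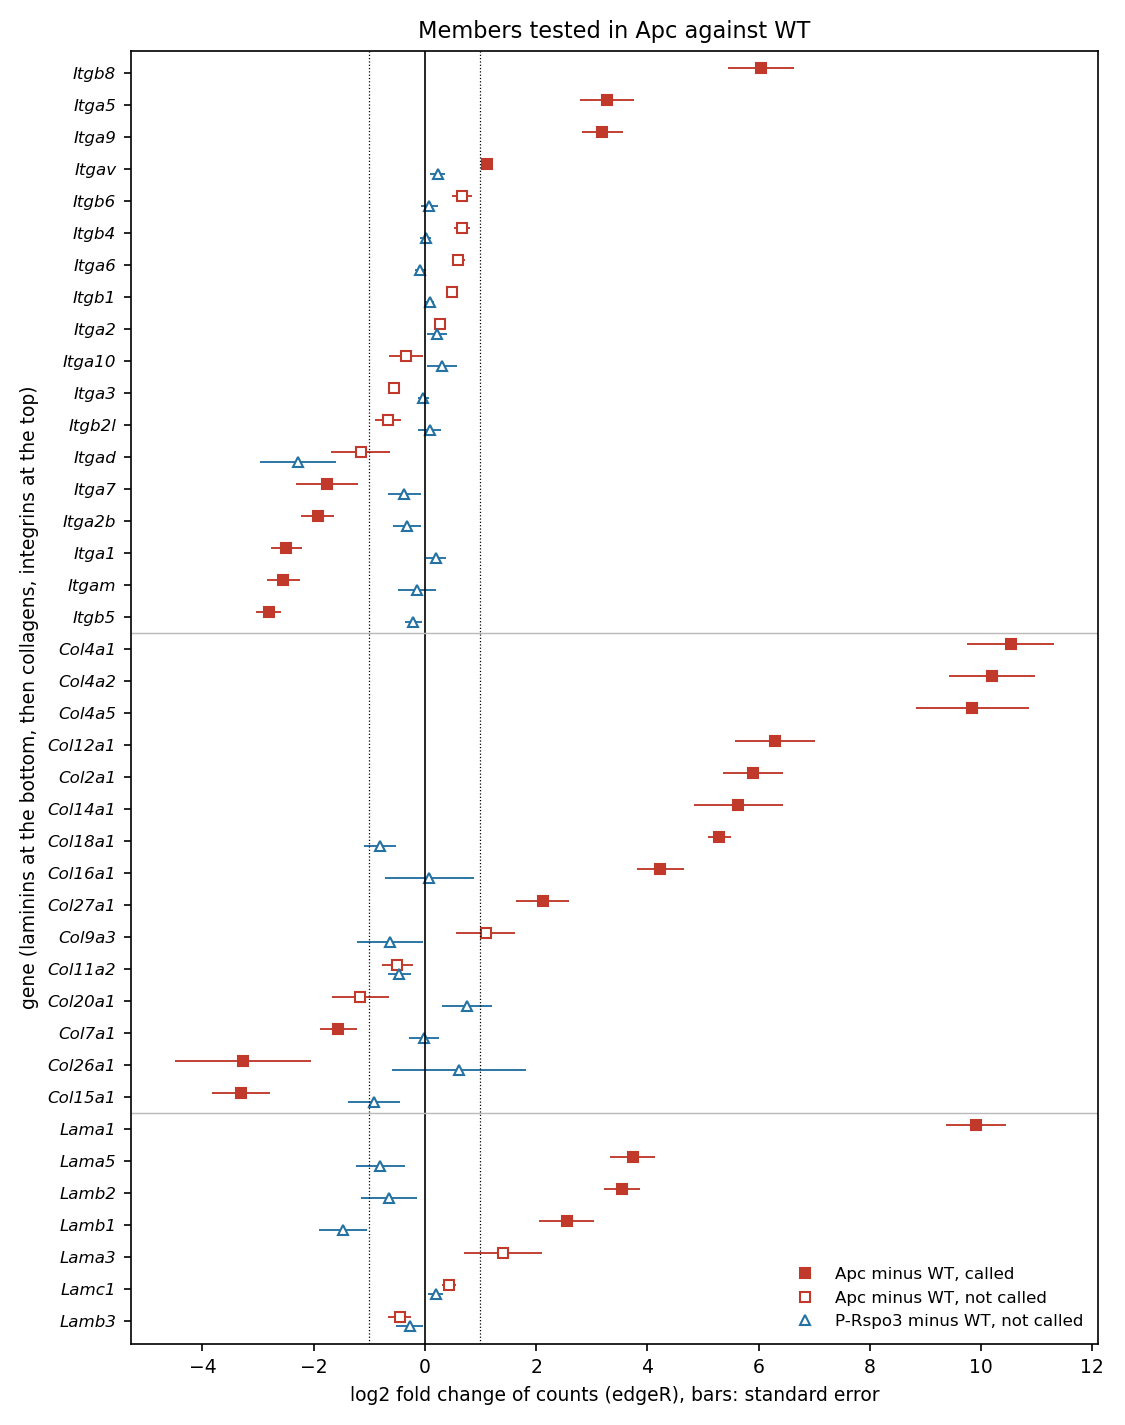
Log2 fold change of counts (edgeR) with its standard error for 40 of the members tested in Apc against WT (squares) and, where tested, in P-Rspo3 against WT (triangles); filled symbols were called and dotted lines mark the fold threshold. In Apc, 17 of the members shown lie to the right and 8 to the left as called, while no triangle is filled; the values of genes at 3 counts or fewer in WT, such as Col4a1 and Lama1, depend on the model and are not bounds.

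Genes that work with the members were counted over whole lists, to be read against the 12.2% of all genes tested that were called higher and the 14.1% called lower in Apc against WT. Of 16 other basement membrane and matrix proteins, 12 were tested in Apc against WT, 8 rose and 2 fell, with a median log2 fold change of 2.29. Nid1, Fn1 and Frem2 among them had no WT library at 0.1 FPKM, and Fras1 no Apc library. These entered only through the group in which they were high and had to differ. In the lists below the same holds for Fermt2, Loxl2, Loxl4 and Timp1, which had no WT library at 0.1 FPKM. The counts and medians include all of these. Fn1, fibronectin, the ligand of Itga5, rose from 0.0051 ± 0.0085 to 3.21 ± 1.4999 FPKM, and Hspg2, perlecan, rose by 1.81 ± 0.19 on the log2 scale of counts. Npnt, nephronectin, rose by 3.26 ± 0.28. Fras1, an extracellular protein of epithelial basement membranes, fell to 0.0155 ± 0.0049 FPKM from 2.71 ± 1.09 (log2 fold change -7.70 ± 0.41). Agrn, agrin, stood at the threshold (1.00 ± 0.16).

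Of 23 proteins of the adhesion plaque and hemidesmosome, 20 were tested, 5 rose and 2 fell, with a median log2 fold change of 0.23 over the 20. Dst, dystonin, which anchors keratins at hemidesmosomes, fell (log2 fold change -2.54 ± 0.24), with at most 338 counts in WT and 106 in Apc behind 9.35 ± 1.45 and 2.30 ± 0.729 FPKM, while Plec, plectin, had a value of -0.75 ± 0.15 that missed the fold threshold. Tns4, a tensin that binds beta integrin tails, rose by 1.70 ± 0.17 and Fermt2, kindlin-2, an integrin activator, by 6.67 ± 0.54. Of 8 other laminin and collagen receptors, 7 were tested, 2 rose and 0 fell, with a median of 0.14, so most of this list was not called. These were Bcam, a receptor for laminin alpha5, by 2.84 ± 0.17 (3.05 ± 0.978 FPKM in WT, 26.8 ± 2.43 in Apc), and Cd44, a hyaluronan receptor, by 1.92 ± 0.15. Dag1, dystroglycan, was at 78.3 ± 6.91 FPKM in WT and 77.5 ± 1.396 in Apc (log2 fold change -0.33 ± 0.06).

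Of 22 genes for collagen folding and crosslinking, 17 were tested, 8 rose and 1 fell, with a median of 0.54. Plod2, a lysyl hydroxylase, rose from 0.369 ± 0.208 to 16.1 ± 3.25 FPKM (log2 fold change 5.44 ± 0.21), and Loxl2, a lysyl oxidase, rose by 6.03 ± 0.48. Loxl4, another lysyl oxidase, had at most 3 counts in WT and up to 209 in Apc. P4hb, a subunit of prolyl 4-hydroxylase that is also a general protein disulfide isomerase, fell (log2 fold change -1.70 ± 0.13). Of 13 matrix proteases and inhibitors, 9 were tested, 4 rose and 0 fell, with a median of 0.51. Mmp7, matrilysin, which Paneth cells also make, rose by 1.74 ± 0.26 and Timp2, a protease inhibitor, by 5.04 ± 0.20. In P-Rspo3 against WT, 0 genes of these 5 lists were called by edgeR, of 8, 18, 7, 14 and 8 tested.

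Many members were at or near the detection limit. At most 3 counts were found in every grouped library for 17 members, and 3 of them (Col11a1, Col24a1 and Itgb3) had 0. A mean of 1 FPKM or more was reached by 16 members in WT, 19 in Apc and 16 in P-Rspo3, and 35 of the 82 had a mean under 0.1 FPKM in every group. At this depth 3 counts or fewer is read as not detectable, which covers counting error only.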

How the data were processed

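RNA of 15 mouse organoid libraries was sequenced, and 13 entered the comparisons. The other 2 (LIPO and NAIVE_F) have a title that conflicts with their genotype label and were left without a group. Reads were mapped to GRCm38 with STAR. The authors deposited whole-number counts per gene from HTSeq 0.6.0, and they also deposited FPKM (fragments per kilobase of transcript, scaled to the library) from Cufflinks 2.2.1. Neither the strand setting nor the annotation release used for counting is stated in the sources at hand, and the 2 tables can order libraries differently for a gene.

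Counts were tested with edgeR 4.0.16 (TMM scaling, quasi-likelihood test, R 4.3.3). A gene entered a test if at least 4 of its libraries reached 0.1 FPKM. P-values were adjusted over all genes that entered by Benjamini-Hochberg, and a gene was called at an adjusted p under 0.05 and a log2 fold change beyond 1. Where a group had at most 3 counts in each library, a bound that allows it 3 counts per library replaced the fitted fold. Levels are in FPKM, errors of levels are SDs, and errors of log2 fold changes are SEs. Alternatives were DESeq2 1.42.0, limma 3.58.1 on log2(FPKM + 1) and log2(FPKM + 0.1), other filters and scalings, leaving out each library, and a block for the line. The labels give an Apc and a WT library of the same number 1 line, and the deviations of these pairs correlated at a median r of 0.0902 across genes (4 pairs, -0.00882 to 0.197). No 2 libraries of a group were alike within sampling noise.

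Symbols and coordinates came from GENCODE (GRCm38) and upstream sequences from RefSeq (GRCm38.p6). Members were named with values if called in any comparison, if at a mean of 5 FPKM or more in a group, or as chains of the laminins, type IV and type VI collagens and epithelial integrins, with Col1a1. Col11a2, Itgad and the members named only as near or at 0 counts were chosen after their values were seen. Of the members counted, 1 is not reported here by name. The members and all gene lists were chosen with earlier results of these data known. Libraries held 28902729 to 35528495 counts, and the floor of 3 counts covers counting error only.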

Additional observations from a re-analysis of the deposited data

Results flagged for a closer look

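Dixon's criterion for a library far from the others of its group was applied to the 51 member and group pairs with a mean of at least 1 FPKM, where chance flags a share of about 0.05. It marked 2 values. Itga6 was at 85.3 FPKM in WT replicate 6, above the other WT libraries at 61.0 to 67.7, and still below every Apc library. Lamb3 was at 19.3 FPKM in Apc replicate 1, above the other Apc libraries at 15.2 to 15.9, and inside the range of WT.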

How the results depend on the processing

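No called value of a member changed direction under any alternative that was run. Of the single-gene results under alternatives, 717 kept their side of the threshold in Apc against WT, 14 gained and 23 lost a call. In Apc against P-Rspo3 these numbers were 592, 9 and 30, and in P-Rspo3 against WT 504, 1 and 0. With a filter of 1 FPKM, 8 members were higher and 4 lower in Apc than WT, and 7 higher and 3 lower than P-Rspo3, from fewer genes tested. With only members that had a library of each group at 0.1 FPKM, an alternative chosen after seeing the data, 9 were higher and 7 lower than WT, and 8 and 8 in Apc against P-Rspo3, since the members that entered through 1 group leave the count. With no filter, 13 were lower than WT. Limma on log2(FPKM + 1) called 11 higher and 2 lower against WT, and 10 and 2 against P-Rspo3, where low genes cannot reach the fold threshold on that scale. Limma on log2(FPKM + 0.1) called 5 lower against P-Rspo3, and the cause was not tested. DESeq2 called 1 member, Lamb1, lower in P-Rspo3 than WT, where it called 228 of all genes against 1 by edgeR. With 1 library omitted at a time, between 18 and 21 members were called higher and between 7 and 8 lower in Apc than in WT, with the same ranges against P-Rspo3 and 0 in P-Rspo3 against WT. A replicate block for the paired lines gave 18 members higher and 7 lower in Apc than WT. It changed no call of a member it tested, and Col26a1 was not tested in it. Members under about 3 counts per library cannot be resolved at this depth.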

Other observations

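The 2 libraries left out of the groups gave the following values. LIPO was at 2.98 FPKM for Lama5, 0.0824 for Col18a1, 6.51 for Itgb5 and 1.65 for Itga1, and NAIVE_F at 2.08, 0.158, 7.71 and 2.32. Col4a1 had 0 counts in LIPO and 2 in NAIVE_F.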
